A study of Mus musculus with 4 samples.

Results

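The 34 genes described here are genes of macrophages whose transcripts were measured by RNA-seq in cultures of EpiSCs, the pluripotent stem cells that are grown from the mouse epiblast. They are 34 of the 22686 genes in the deposited table, picked by symbol, and all 34 symbols were present. Their FPKM (fragments per length of transcript and per size of the library, a level that can be compared between genes) chose them, because several lay near 0 in 1 library and high in the other 3. FPKM levels and their ratios are therefore given as a description, with no test.

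The 4 libraries were Smchd1 MD1/MD1 with Xist1lox/+, Smchd1 MD1/MD1 with XistdeltaA/+, Smchd1 +/+ with Xist1lox/+ and Smchd1 +/+ with XistdeltaA/+, and values of all 4 are given below in this order. All came from female cells labelled E6.5, of C57BL6/J crossed with an F1 of JF1 and C57BL6/J, so part of the genome can carry a JF1 allele of paternal origin. Smchd1 encodes a chromatin protein needed for silencing of the inactive X, and Xist is the noncoding RNA that coats that chromosome; all 4 groups carried a Xist mutation on 1 allele, and no library without a Xist mutation was analysed here. Each genotype had 1 library. No difference between libraries has a replicate check, and genotype cannot be told apart from the culture that was sequenced. The labels name the alleles without describing them. The labels used here do not say how the cells were cultured, or whether feeder cells were present.

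Macrophages are phagocytes that arise from haematopoietic precursors and, in the early embryo, from the yolk sac. Their growth and survival depend on the receptor CSF1R, and the transcription factor PU.1 drives many of their genes. They digest what they engulf with lysosomal enzymes and an oxidase that makes superoxide, recognise particles through complement C1q and Fc receptors, and signal through small adaptors such as TYROBP.

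Promoters show the letters that PU.1 can bind in several of the genes that were near 0 in a single library. RefSeq promoters (GRCm38.p6, 250 bases before to 50 after the gene start, 300 bases in all) matched 27 of the 34 genes, and Cd14, C1qa, Cd52, Itgb2, Csf1r, Tyrobp and Ncf4 were not matched. The 4 printed here are those of Ctss, a lysosomal cysteine protease (chr3:95526536-95526835, plus strand), C1qc, a chain of complement C1q (chr4:136892865-136893164, minus strand), Itgam, the integrin CD11b (chr7:128062390-128062689, plus strand), and Trem2, a lipid-sensing receptor (chr17:48346151-48346450, plus strand). They were picked because each holds the PU.1 letters and comes from a different functional group. Each is written 5′ to 3′ on the strand of the gene, and capitals mark matches on either strand to any of 5 motifs, none of which overlaps another here. The first, for PU.1, is GAGGAAG, which appears as CTTCCTC where the match lies on the other strand. The second, for AP-1, is TGANTCA. For C/EBP proteins the letters searched were TTGCGCA. For the MiT/TFE factors that act on lysosomal genes they were CACGTGA. The A/T-rich box that positions the start of transcription in some promoters was searched as TATAAA, and it is written TTTATA where the match lies on the other strand.
Ctss: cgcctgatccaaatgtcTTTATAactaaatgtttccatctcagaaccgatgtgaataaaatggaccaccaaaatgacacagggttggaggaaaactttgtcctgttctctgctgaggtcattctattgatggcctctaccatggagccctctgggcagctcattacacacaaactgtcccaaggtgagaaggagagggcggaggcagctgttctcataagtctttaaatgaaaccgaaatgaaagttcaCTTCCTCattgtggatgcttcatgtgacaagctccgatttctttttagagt
C1qc: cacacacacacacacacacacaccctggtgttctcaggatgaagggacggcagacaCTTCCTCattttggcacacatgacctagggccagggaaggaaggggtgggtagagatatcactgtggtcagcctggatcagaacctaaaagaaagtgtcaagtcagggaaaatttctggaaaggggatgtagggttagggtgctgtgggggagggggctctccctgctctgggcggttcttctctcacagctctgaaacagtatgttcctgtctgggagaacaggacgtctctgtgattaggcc
Itgam: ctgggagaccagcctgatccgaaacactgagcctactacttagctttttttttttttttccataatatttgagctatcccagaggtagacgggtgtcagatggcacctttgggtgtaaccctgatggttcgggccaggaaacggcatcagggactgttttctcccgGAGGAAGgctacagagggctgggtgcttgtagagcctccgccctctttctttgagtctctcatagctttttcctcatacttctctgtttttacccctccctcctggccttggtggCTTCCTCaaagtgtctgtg
Trem2: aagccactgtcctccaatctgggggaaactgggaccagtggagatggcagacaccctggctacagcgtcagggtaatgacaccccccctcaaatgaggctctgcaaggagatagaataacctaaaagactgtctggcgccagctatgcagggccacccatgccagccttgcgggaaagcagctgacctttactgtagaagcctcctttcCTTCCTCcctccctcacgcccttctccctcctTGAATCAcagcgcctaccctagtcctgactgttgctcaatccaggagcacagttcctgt

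Of the 27 promoters, 10 held GAGGAAG on either strand (37.0%), against 15.4% of 27025 genes with a promoter in the same table. The 10 were C1qc, Cd53, Ctss, Fcgr1, Fcgr3, Itgam, Laptm5, Mrc1, Spp1 and Trem2, and Itgam held the letters on each strand. TGANTCA was present in 5 of 27 (18.5%, against 8.97% of all genes): Ccl9, Cd68, Cybb, Gpnmb and Trem2. TATAAA was also present in 5 of 27 (18.5%, against 15.7%). TTGCGCA and CACGTGA were in 0 of 27, against 2.32% and 4.29% of all genes. A match describes the letters of this window and is not a measured site.

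The libraries held 7301034, 8008500, 7822217 and 7826600 allele-assigned reads, that is, reads that cover a strain variant. Smchd1 was lower in both MD1/MD1 libraries, at 5.98 and 6.68 FPKM, against 20.9 and 27.0 FPKM in the +/+ libraries, which goes with their labels. The 10 markers of EpiSCs summed to 2393, 2324, 2493 and 1792 FPKM, with Pou5f1, the pluripotency factor OCT4, at 873, 855.5, 984.1 and 551.1 FPKM, so EpiSC transcripts were abundant in every library. Their sum was lowest in +/+ XistdeltaA/+. With XistdeltaA/+, 2 of the 10 (Sox2 and Dnmt3b) were at least 2-fold higher in MD1/MD1 than in +/+ and 0 were lower. Of the 11471 genes with a mean of at least 1 FPKM, 3.91% were higher and 1.82% lower. The +/+ XistdeltaA/+ library stood apart in the genes described here, and each ratio that has it as its lower term rests on that 1 library. In RNA from a whole culture, fewer cells of a type and less RNA per cell cannot be told apart.

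The 34 genes summed to 844.8 FPKM in MD1/MD1 Xist1lox/+, 2517 FPKM in MD1/MD1 XistdeltaA/+, 837.1 FPKM in +/+ Xist1lox/+ and 183.9 FPKM in +/+ XistdeltaA/+. This was 0.181%, 0.584%, 0.176% and 0.0401% of the FPKM of all genes. Spp1 and Lyz2 made up most of it, and without them the sums were 213.9, 522.5, 234.9 and 92.95 FPKM. The order of the libraries was therefore the same without them, except that +/+ Xist1lox/+ was slightly above MD1/MD1 Xist1lox/+. The number of the 34 genes at 1 FPKM or more was 27, 30, 24 and 5, and 13 genes were listed at 0 in +/+ XistdeltaA/+ against 0 genes in each of the other 3 libraries. The 5 genes at 1 FPKM or more in +/+ XistdeltaA/+ were Spp1, Cyba, Cd68, Coro1a and Cd14. A filter on a mean of at least 1 FPKM kept 28 of the 34 genes, and Ptprc, Mrc1, Fcgr1, Lyz1, Ccl3 and Aif1 fell below it.

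**Figure D1:**
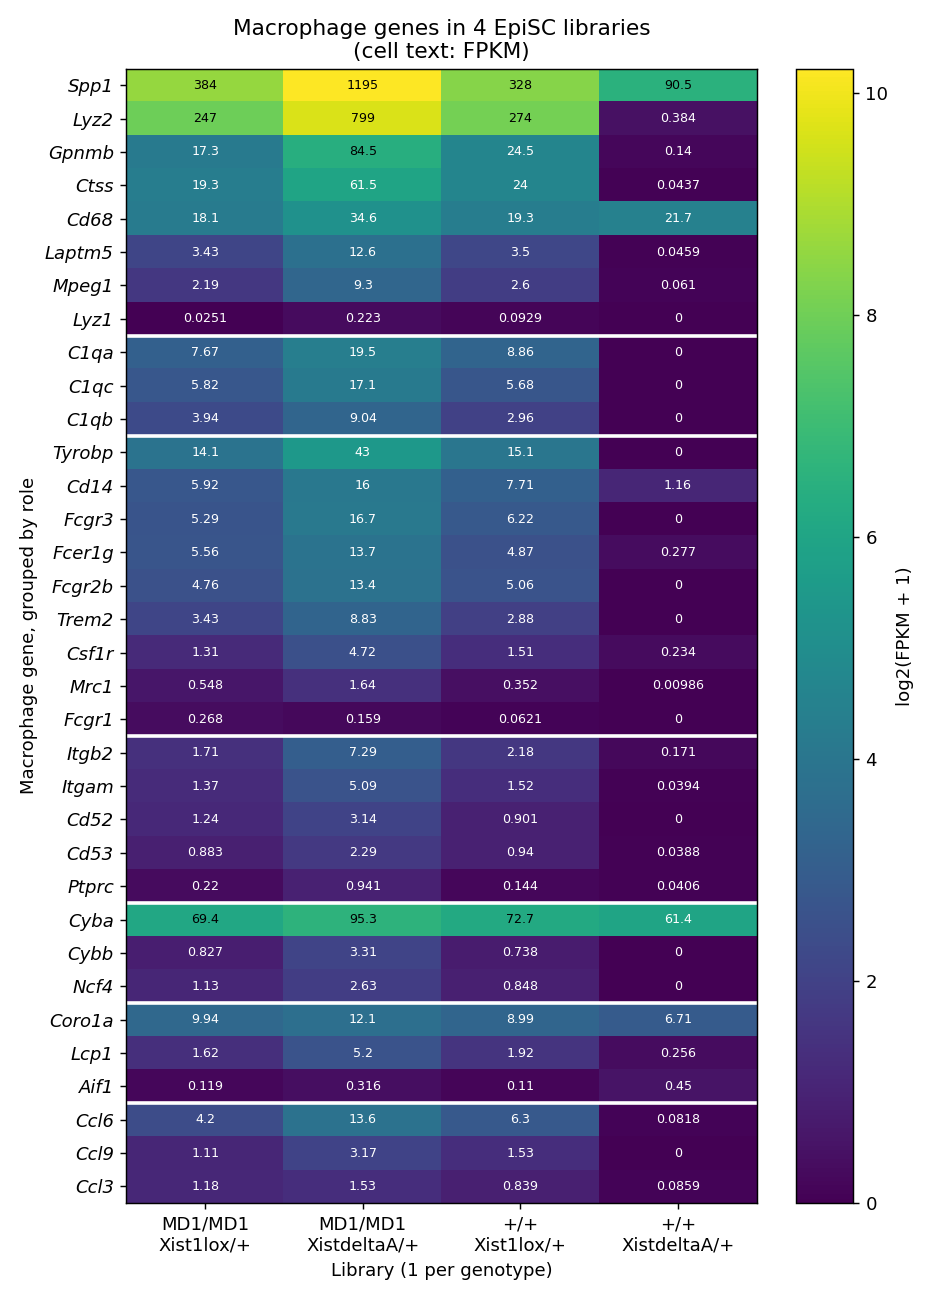
FPKM of the 34 macrophage genes (rows, grouped by role between white lines) in the 4 libraries (columns), with colour on the log2(FPKM + 1) scale and the FPKM written in each cell. The +/+ XistdeltaA/+ column is at or near 0 for most genes, and the MD1/MD1 XistdeltaA/+ column is the highest for 32 of them.

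Among lysosomal and secreted products, Lyz2, the lysozyme of macrophages (mm9, chromosome 10, 116714597 to 116719328, minus strand), was at 246.6 FPKM in MD1/MD1 Xist1lox/+, 799.1 FPKM in MD1/MD1 XistdeltaA/+, 273.9 FPKM in +/+ Xist1lox/+ and 0.384 FPKM in +/+ XistdeltaA/+. Its allele-assigned reads were 4971, 11311, 5825 and 10. Lyz2 was thus high in 3 libraries and nearly undetected in the fourth, in levels and in reads. Lyz1 lies next to Lyz2 and is nearly identical to it, so reads of the pair may be shared; it stayed at or below 0.223 FPKM in every library. Spp1 encodes osteopontin, a secreted matrix protein of macrophages that bone and epithelial cells also make (chromosome 5, 104864130 to 104870072, plus strand). Its level was 384.3, 1195, 328.2 and 90.53 FPKM. Spp1 was the most abundant of the 34 genes in every library, and unlike Lyz2 it stayed high in +/+ XistdeltaA/+.

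Ctss, the protease cathepsin S, was at 19.3, 61.5, 24.0 and 0.0437 FPKM, with 349, 1274, 478 and 0 allele-assigned reads. Against a floor of 3 reads in the library with none, its library-scaled reads were at least 415-fold higher in MD1/MD1 XistdeltaA/+ than in +/+ XistdeltaA/+, and at least 159-fold higher in +/+ Xist1lox/+. Gpnmb, a glycoprotein of lysosomal membranes (chromosome 6, 48986517 to 49008181, plus strand), was at 17.3, 84.5, 24.5 and 0.140 FPKM, with 686, 3673, 1081 and 5 reads. Both genes thus repeated the pattern of Lyz2. Laptm5, a lysosomal membrane protein of blood cells, was at 3.43, 12.6, 3.50 and 0.0459 FPKM, and Mpeg1, the pore-forming protein perforin-2, at 2.19, 9.30, 2.60 and 0.0610 FPKM. Cd68 behaved differently. This endosomal glycoprotein is widely used as a macrophage marker, and its level was 18.1, 34.6, 19.3 and 21.7 FPKM, so +/+ XistdeltaA/+ was not the lowest library.

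All 3 chains of complement C1q, the recognition subunit of the classical pathway, were listed at 0 in +/+ XistdeltaA/+. Their genes lie side by side on chromosome 4 (136436061 to 136454759). C1qa was at 7.67, 19.5, 8.86 and 0 FPKM, C1qb at 3.94, 9.04, 2.96 and 0 FPKM, and C1qc at 5.82, 17.1, 5.68 and 0 FPKM. The order of the chains was C1qa, C1qc, C1qb in each of the 3 libraries that contained them. None of the 3 had an allele-assigned read in any library, so their depth cannot be given, and no fold is given for them against the library at 0.

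Receptors and their adaptors, Fcgr1 apart, were likewise highest in MD1/MD1 XistdeltaA/+ and lowest in +/+ XistdeltaA/+. Tyrobp, the ITAM adaptor DAP12 that pairs with TREM2, was at 14.1, 43.0, 15.1 and 0 FPKM. Trem2 itself was at 3.43, 8.83, 2.88 and 0 FPKM, with 92, 244, 76 and 0 reads. The adaptor and its receptor were thus each listed at 0 in the same library. Fcer1g, the Fc receptor gamma chain, was at 5.56, 13.7, 4.87 and 0.277 FPKM. The low-affinity Fc receptors showed the same: Fcgr3 was at 5.29, 16.7, 6.22 and 0 FPKM, and Fcgr2b, its inhibitory counterpart and a paralog that may share reads with it, at 4.76, 13.4, 5.06 and 0 FPKM. The high-affinity receptor Fcgr1 departed from them, at 0.268, 0.159, 0.0621 and 0 FPKM, a level too low to order the libraries.

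Csf1r, the receptor for the growth factors CSF1 and IL-34, was at 1.31, 4.72, 1.51 and 0.234 FPKM, with 46, 222, 57 and 9 reads. Cd14, the co-receptor for bacterial lipopolysaccharide, was at 5.92, 16.0, 7.71 and 1.16 FPKM, with 153, 512, 218 and 42 reads. Both were lowest in +/+ XistdeltaA/+ but above 0 there. Mrc1, the mannose receptor, was at 0.548, 1.64, 0.352 and 0.00986 FPKM, with 41, 127, 24 and 0 reads.

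The leukocyte surface genes were low in all libraries. Itgam, the alpha chain of the complement receptor CD11b/CD18, was at 1.37, 5.09, 1.52 and 0.0394 FPKM, and Itgb2, its beta chain, at 1.71, 7.29, 2.18 and 0.171 FPKM. The chains of this dimer therefore kept the same order of libraries. Cd52 was at 1.24, 3.14, 0.901 and 0 FPKM, and the tetraspanin Cd53 at 0.883, 2.29, 0.940 and 0.0388 FPKM. Ptprc, the phosphatase CD45 of all nucleated blood cells, was at 0.220, 0.941, 0.144 and 0.0406 FPKM, with 25, 80, 16 and 3 reads.

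Of the NADPH oxidase, which makes superoxide in phagosomes, the catalytic chain Cybb was at 0.827, 3.31, 0.738 and 0 FPKM and the cytosolic subunit Ncf4 at 1.13, 2.63, 0.848 and 0 FPKM. Cyba, the p22phox partner that many cell types make, was at 69.4, 95.3, 72.7 and 61.4 FPKM. The phagocyte subunits were thus listed at 0 in +/+ XistdeltaA/+, while Cyba stayed abundant there. The actin-binding genes split in the same way. Lcp1, the leukocyte fimbrin L-plastin, was at 1.62, 5.20, 1.92 and 0.256 FPKM, and Coro1a, coronin 1A, at 9.94, 12.1, 8.99 and 6.71 FPKM. Aif1, the calcium-binding protein IBA1, was the only one of the 34 genes to be highest in +/+ XistdeltaA/+, at 0.119, 0.316, 0.110 and 0.450 FPKM, all below 1 FPKM.

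Of the chemokines, Ccl6 was at 4.195, 13.6, 6.30 and 0.0818 FPKM and Ccl9 at 1.11, 3.17, 1.53 and 0 FPKM. Both were higher in +/+ Xist1lox/+ than in MD1/MD1 Xist1lox/+. Ccl3, an inflammatory chemokine, was at 1.18, 1.53, 0.839 and 0.0859 FPKM, with 3, 4, 5 and 1 reads, too few to compare.

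The Smchd1 comparison was made within each Xist background, as ratios on the log2(FPKM + 1) scale, which understates the change of low genes. With XistdeltaA/+, 25 of the 28 genes that passed the filter were at least 2-fold higher in MD1/MD1 than in +/+ and 0 were at least 2-fold lower. The background over all 11471 genes that passed was 3.91% higher and 1.82% lower, and since this contrast chose the genes nothing is read from the difference. The median log2 ratio was 3.29, against -0.05 over all genes, and the values ran up to 9.18 for Lyz2, 6.23 for Gpnmb and 5.90 for Ctss. Of the 28 genes, 11 were listed at 0 in +/+ XistdeltaA/+, the C1q chains among them, and their ratios depend on the added 1 and enter only the count and the median. The 3 genes that did not reach 2-fold were Cyba at 0.63, Cd68 at 0.65 and Coro1a at 0.77. All 3 were at 6.71 FPKM or more in +/+ XistdeltaA/+, as Spp1 also was.

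With Xist1lox/+, 0 of the 28 genes reached 2-fold in either direction, higher or lower in MD1/MD1, against 0.445% and 0.375% of all genes. The median log2 ratio was -0.09, against 0.00 over all genes. The values ran from -0.49 for Ccl6 to 0.32 for C1qb, and 9 genes were above 0 and 19 below. Having 0 genes past 2-fold is near the share over all genes. The macrophage genes were also chosen as high in both of these libraries, so nothing is read from this count.

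**Figure D2:**
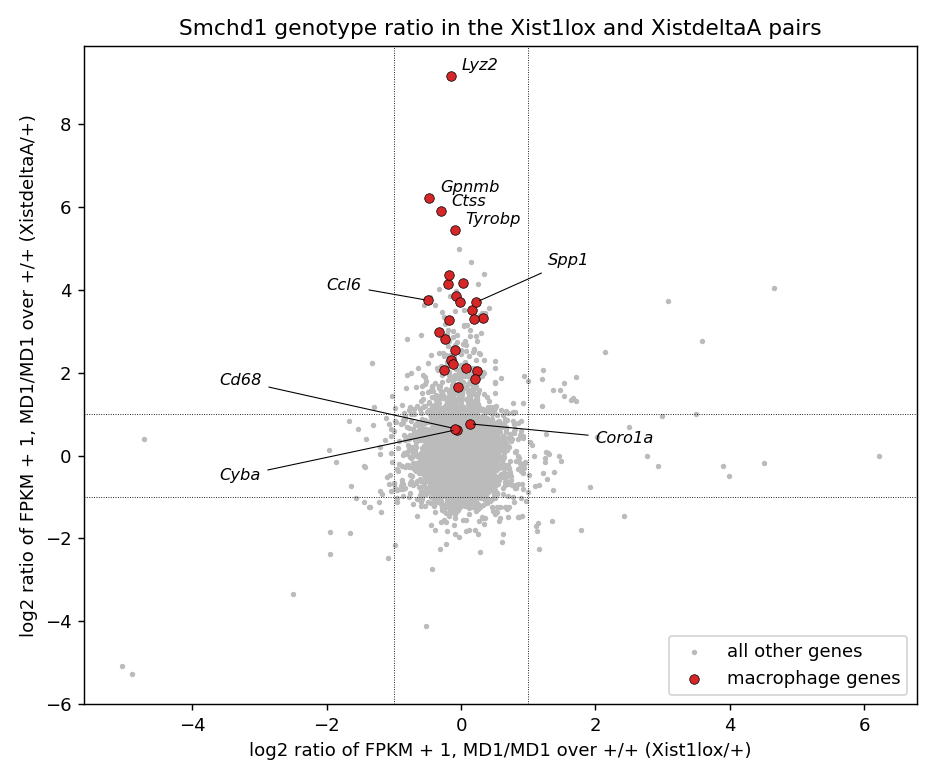
Log2 ratio of FPKM + 1, MD1/MD1 over +/+, in the Xist1lox/+ pair (horizontal axis) and the XistdeltaA/+ pair (vertical axis) for the 28 macrophage genes (red) and all other genes (grey) with a mean of at least 1 FPKM; dotted lines mark 2-fold. The red points lie between -0.49 and 0.32 on the horizontal axis and between 0.63 and 9.18 on the vertical axis.

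The Xist comparison shares the same libraries. In +/+ cells, 21 of the 28 genes were at least 2-fold higher with Xist1lox/+ than with XistdeltaA/+ and 0 were lower, against 1.73% and 1.4% of all genes, with a median log2 ratio of 1.90 (all genes -0.02). In MD1/MD1 cells the direction was the opposite. There 0 of the 28 genes were at least 2-fold higher with Xist1lox/+ and 21 were lower, against 0.323% and 2.17% of all genes, with a median of -1.30 (all genes 0.04). MD1/MD1 XistdeltaA/+ was thus the highest library and +/+ XistdeltaA/+ the lowest, with both Xist1lox/+ libraries between them.

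Allele-assigned reads of the same genes and libraries are a further description and no separate check. Of the 28 genes that passed the filter, 21 had more than 3 reads in each of the other 3 libraries. Among these, 11 had 3 or fewer reads in +/+ XistdeltaA/+, and 7 of them had 0. With those 11 set at 3 reads, the median log2 ratio of library-scaled reads was at least 5.74 for MD1/MD1 XistdeltaA/+ over +/+ XistdeltaA/+, and at least 3.88 for +/+ Xist1lox/+ over +/+ XistdeltaA/+. These medians are larger than those on the log2(FPKM + 1) scale. The 21 genes were kept by their reads in the libraries where they are high, so nothing is read from the size of the medians.

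Among the 3 libraries that contained the genes, most differed by a similar factor. For the 24 genes with at least 1 FPKM in each of those 3 libraries, the linear ratio of MD1/MD1 XistdeltaA/+ to MD1/MD1 Xist1lox/+ had a median of 3.08 and quartiles of 2.57 and 3.33, against a median of 0.970 over 10989 other genes. The ratio of MD1/MD1 XistdeltaA/+ to +/+ Xist1lox/+ had a median of 2.83 (quartiles 2.19 and 3.18), against 0.971. Quartiles of the other genes were 0.8652 and 1.122 in the first ratio and 0.8405 and 1.159 in the second. A narrow spread around the median was therefore not particular to the macrophage genes. In the first of these ratios Lyz2 was at 3.24, Spp1 at 3.11, Tyrobp at 3.06 and Trem2 at 2.57. The extremes in it were Gpnmb at 4.88 and Coro1a at 1.22. Between the Xist1lox/+ libraries the ratio of MD1/MD1 to +/+ had a median of 0.901 (quartiles 0.831 and 0.992), against 1.00 over the other genes.

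The genes most alike in pattern were found by the smallest of their 3 log2 ratios of FPKM + 0.1 over +/+ XistdeltaA/+. Of the 11471 genes, 48 (0.418%) were at least 8-fold higher in each of the 3 libraries. Among them were 19 of the 28 macrophage genes that passed the filter, and 8 macrophage genes ranked ahead of the first other gene. The macrophage genes were chosen on this pattern, so nothing is read from their number or rank. The 20 highest other genes were Clec4d, Pf4, Ms4a7, Lilrb4, Emr1, Arg1, Wfdc17, Msr1, AF251705, Il1rn, Clec4n, Ctla2b, Ms4a6d, Gp49a, Cxcl2, Mmp12, Cd36, Ccrl2, Pla2g7 and Npy. Emr1, which encodes the macrophage surface antigen F4/80, was at 2.71, 7.21, 2.38 and 0 FPKM, and the scavenger receptor Msr1 at 2.01, 5.44, 1.94 and 0 FPKM. Clec4d, a C-type lectin, was at 4.14, 14.7, 4.42 and 0 FPKM. Of the 20, 11 were listed at 0 in +/+ XistdeltaA/+ and 19 were highest in MD1/MD1 XistdeltaA/+, the exception being Arg1, arginase, at 2.99, 2.34, 2.48 and 0 FPKM.

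Other known macrophage genes were taken from lists of 134 genes, 72 of which passed the filter. The lists were written with earlier results of these data known, so they are no independent check. With XistdeltaA/+, 40 of the 72 were higher in MD1/MD1 by 2-fold or more and 0 were lower, with a median log2 ratio of 1.14. Of all genes that passed the filter, 3.91% were higher and 1.82% lower, which also applies to the counts by role below. With Xist1lox/+, 1 was higher and 0 were lower, with a median of -0.03, against 0.445% and 0.375% of all genes. The XistdeltaA/+ pair thus differed in these genes too, while 32 of the 72 stayed within 2-fold.

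By role, 14 of 17 surface receptors that passed were at least 2-fold higher in MD1/MD1 with XistdeltaA/+ (median 2.22), among them Cd36, a fatty acid transporter, at 1.31, 9.28, 1.76 and 0.0158 FPKM. Ccr2, Cd163 and Timd4 were listed at 0 in every library, so these receptors of monocytes and resident macrophages were not seen at this depth. Clec4d and Ms4a7 are on this list as well, and Sirpa, a phagocyte receptor for CD47 that other cells also make, was at 13.2, 12.6, 12.02 and 11.3 FPKM. Of the transcription factors, Spi1, which encodes PU.1, passed 2-fold, at 1.04, 3.93, 1.22 and 0.0893 FPKM, while Cebpa, Irf8, Batf3 and Cebpb stayed within 2-fold, at log2 ratios of 0.96, 0.74, 0.56 and 0.46. Of the secreted and polarisation genes 9 of 11 passed 2-fold, such as Mmp12, macrophage elastase, at 2.61, 13.0, 4.31 and 0.119 FPKM. Of the haematopoietic signalling genes 5 of 10 passed it, such as Arhgdib, at 2.83, 12.7, 3.49 and 1.53 FPKM, but not Plcg2, at 30.9, 33.99, 23.5 and 48.4 FPKM. A further subunit of the oxidase that passed the filter, Ncf1, was at 1.32, 4.77, 2.46 and 0.487 FPKM. Lysosome and lipid genes, many of which most cells use, had 9 of 27 past 2-fold and a median of 0.37. Cathepsin D (Ctsd) was at 228.5, 535.7, 252 and 179.8 FPKM, and the lysosomal membrane protein Lamp1 at 129, 152, 132 and 133 FPKM.

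Markers of most other cell types were low in every library or in another order. The neutrophil list summed to 2.005, 2.94, 3.16 and 2.82 FPKM, with S100a9 and Camp listed at 0 in every library. Mast cell genes summed to at most 2.27 FPKM, B cell genes to at most 1.22 FPKM and erythroid genes to at most 0.553 FPKM. The T and NK cell list summed to 9.28, 7.85, 11.6 and 8.52 FPKM, of which Lck gave 9.28, 7.77, 11.6 and 8.52 FPKM, while Cd3d, Cd3e, Cd3g and Cd8a were listed at 0 in every library. Apart from Lck, these markers of lymphocytes, granulocytes and red cells were low, with Mcpt8 of the mast cell list at 0.502, 2.27, 0.426 and 0.634 FPKM and Cd79a of the B cell list at 0.759, 1.20, 0.680 and 0.179 FPKM. The osteoclast list summed to 11.6, 17.2, 13.4 and 14.2 FPKM, the microglia list to 37.0, 46.5, 35.8 and 37.9 FPKM with Siglech listed at 0 in every library, and the list of dendritic and antigen presenting cells to 18.3, 11.3, 10.9 and 9.22 FPKM. Endothelial genes summed to at most 0.744 FPKM. The trophoblast list was highest in MD1/MD1 XistdeltaA/+, at 1.89, 12.3, 5.37 and 6.13 FPKM, with Hand1 at 0.189, 5.19, 0.277 and 0.372 FPKM. The megakaryocyte list was highest and lowest in the same libraries as the macrophage genes, at 4.203, 12.6, 6.37 and 0.411 FPKM, and Pf4 alone, a chemokine that macrophages also make, gave 3.66, 11.4, 5.11 and 0 FPKM of it.

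The summed level of fibroblast markers was also highest in MD1/MD1 XistdeltaA/+ and lowest in +/+ XistdeltaA/+. The 12 genes summed to 198.3, 484.5, 250.3 and 116.0 FPKM. With XistdeltaA/+ 8 of the 12 were at least 2-fold higher in MD1/MD1 than in +/+, with a median log2 ratio of 1.28, against 0 of 12 with Xist1lox/+. Of all genes that passed the filter, 3.91% were at least 2-fold higher with XistdeltaA/+ and 0.445% with Xist1lox/+. Vim, the intermediate filament vimentin, was at 101, 263, 152.8 and 34.1 FPKM, and Col1a1, a chain of type I collagen, at 12.7, 30.7, 14.2 and 9.31 FPKM. None of the 12 was listed at 0 in any library. In +/+ XistdeltaA/+ 8 of them had their lowest level, and the other 4, Thy1, Dcn, Pdgfrb and Postn, did not. The paternal share of Vim reads was 5.33%, 3.40%, 20.5% and 12.2%. Other genes of the list had other shares, so Vim does not stand for it. Fn1 was at 22.3%, 4.98%, 1.67% and 37.4%, Col1a1 at 8.77%, 16.55%, 5.66% and 27.3%, and Thy1 at 37.5%, 32.4%, 36.2% and 33.3%. These shares were not set against their windows. Whether fibroblasts were present, and whether they had a part in the macrophage result, was not tested.

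**Figure D3:**
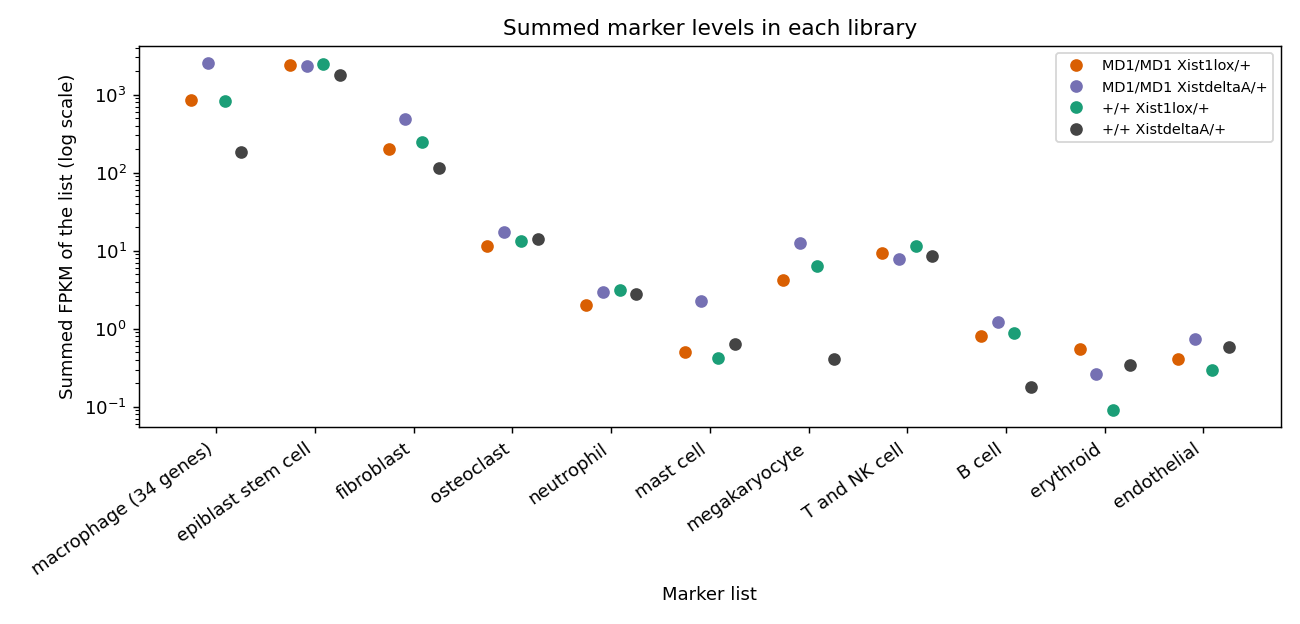
Summed FPKM (log scale) of the 34 macrophage genes and of 10 marker lists in the 4 libraries (points, 1 per library). The macrophage sum runs from 183.9 to 2517 FPKM, the fibroblast sum from 116.0 to 484.5 FPKM and the EpiSC sum from 1792 to 2493 FPKM. All of these sums are lowest in +/+ XistdeltaA/+.

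The share of paternal reads was not used to choose the genes. It could be read for 20, 22, 19 and 6 of the autosomal macrophage genes, those with at least 20 allele-assigned reads, and brackets give exact Clopper-Pearson intervals at 95%, which cover counting error only. Pooled over these genes the paternal share was 18.8% (18.2 to 19.3) in MD1/MD1 Xist1lox/+, 19.75% (19.45 to 20.04) in MD1/MD1 XistdeltaA/+, 16.7% (16.2 to 17.1) in +/+ Xist1lox/+ and 25.8% (24.5 to 27.0) in +/+ XistdeltaA/+. Spp1 weighed heavily on these values, and without Spp1 and Lyz2 they were 8.35%, 11.3%, 7.41% and 19.0%. In MD1/MD1 XistdeltaA/+, Cyba gave 596 of the 1314 paternal reads that remained. The median gene had 4.56%, 6.05%, 4.55% and 33.0%. The last value cannot be set beside the others, since it rests on Cd14, Cd68, Coro1a, Cyba, Lcp1 and Spp1 alone. In MD1/MD1 Xist1lox/+ these genes were at 32.0%, 30.9%, 37.1%, 0%, 19.3% and 28.5%. The other genes around the macrophage genes had higher shares: the medians of their 10 Mb windows had a median of 48.3%, 46.8%, 47.9% and 49.2%.

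Gene by gene, 13 of 20 macrophage genes in MD1/MD1 Xist1lox/+ lay at least 20 points from the median of their window, 12 below and 1 above, against 8.9% of other autosomal genes. In MD1/MD1 XistdeltaA/+ it was 17 of 22, 14 below and 3 above, against 11.7%. In +/+ Xist1lox/+ it was 12 of 19, 11 below and 1 above, against 8.07%. These 3 libraries thus had most of their macrophage genes out of step with neighbouring genes. In +/+ XistdeltaA/+ it was 2 of 6, Spp1 and Lcp1, against 8.14%, and 6 genes are too few to set beside the other libraries.

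Several genes were read almost wholly from the maternal-type allele where the window carried both alleles. In windows with a median share of at least 30%, 9 of 17 macrophage genes in MD1/MD1 Xist1lox/+ were under 10% paternal, as were 11 of 18 in MD1/MD1 XistdeltaA/+ and 8 of 14 in +/+ Xist1lox/+, against 2.89%, 3.54% and 2.46% of other genes. In +/+ XistdeltaA/+ it was 0 of 5, against 1.5%. Lyz2 had 0 of 4971 paternal reads in MD1/MD1 Xist1lox/+, which allows a share of up to 0.0604%, in a window with a median of 48.8%. In MD1/MD1 XistdeltaA/+ it had 3 of 11311 (0.0265%, 0.0055 to 0.0775), in a window at 45.4%. Ctss was at 5.73%, 5.49% and 4.81% in MD1/MD1 Xist1lox/+, MD1/MD1 XistdeltaA/+ and +/+ Xist1lox/+, in windows at 47.9%, 46.7% and 47.8%. Laptm5 was at 1.15%, 0.302% and 0% in windows near 48%, and Itgam at 1.33%, 0% and 4.55%, also in windows near 48%. Ccl6 had 0 of 116, 0 of 442 and 0 of 190 paternal reads.

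The reverse was seen in windows that carried the maternal-type allele almost alone. Trem2 was 53.3% paternal (42.6 to 63.7) in MD1/MD1 Xist1lox/+ and 46.3% (39.9 to 52.8) in MD1/MD1 XistdeltaA/+, in windows with medians of 0.174% and 0.843%. Cd14 was at 28.7% (24.8 to 32.8) in MD1/MD1 XistdeltaA/+ and 25.7% (20.03 to 32.02) in +/+ Xist1lox/+, in windows at 0.0798% and 0.0138%. Itgb2 was at 20.1% (14.3 to 27.1) and 11.4% (3.79 to 24.6) in the same libraries, in windows at 0.0918% and 0%. These genes thus had paternal-type reads in regions where neighbouring genes had nearly none. In windows with a median under 5%, a share of 10% or more was found for 1 of 3 macrophage genes in MD1/MD1 Xist1lox/+, 3 of 4 in MD1/MD1 XistdeltaA/+, 2 of 5 in +/+ Xist1lox/+ and 0 of 1 in +/+ XistdeltaA/+, against 3.18%, 5.78%, 2.29% and 2.3% of other genes. These are few genes in each library.

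**Figure D4:**
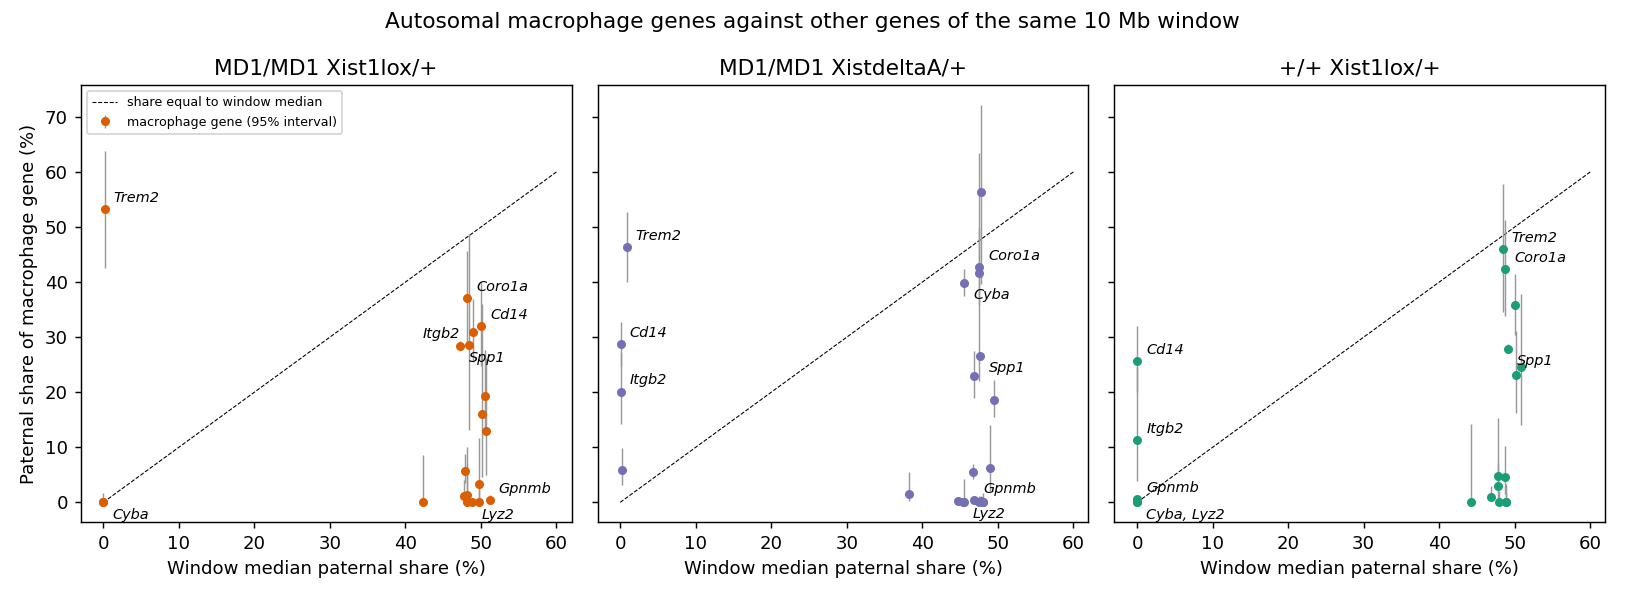
Paternal share of autosomal macrophage genes with at least 20 allele-assigned reads (vertical axis, percent, bars are exact 95% intervals) against the median share of other genes in the same 10 Mb window (horizontal axis, percent) in 3 libraries; the dashed line marks equal shares. Most genes lie below the line at windows near 48%, and Trem2 lies far above it at a window near 0% in both MD1/MD1 libraries.

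The paternal share was then compared among the 3 libraries, a step added after the data had been seen. Of 19 autosomal macrophage genes with a share in all 3, 15 stayed within a range of 10 points, and the median range was 3.39 points. For 11 of the 19 the window medians ranged over less than 30 points, and 10 of these 11 stayed within 10 points, Cd68 being the exception, against 73.1% of other genes in such windows. For the other 8 the window medians ranged over at least 30 points. Of these, 5 stayed within 10 points, namely Gpnmb, Lyz2, Mpeg1, Cd14 and Trem2, against 3.17% of other genes, while Cyba ranged over 39.9 points, Csf1r over 18.7 and Itgb2 over 17.2. A gene near 0% in every library, as Gpnmb, Lyz2 and Mpeg1 were, has a small range whatever its window does. Gpnmb was at 0.437% (0.0903 to 1.27), 0.436% (0.249 to 0.706) and 0.555% (0.204 to 1.20) in windows at 51.1%, 46.8% and 0%. Trem2 was at 53.3%, 46.3% and 46.1% in windows at 0.174%, 0.843% and 48.4%. Spp1, whose window was near 48% throughout, was at 28.5%, 26.6% and 27.9%, and at 28.7% (27.2 to 30.3) in +/+ XistdeltaA/+.

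Between MD1/MD1 Xist1lox/+ and +/+ Xist1lox/+, 6 macrophage genes (Cd14, Gpnmb, Itgb2, Lyz2, Mpeg1 and Trem2) lay in windows whose medians differed by at least 30 points. Their own shares differed by a median of 3.68 points and 0 of 6 differed by 30 points or more, whereas 90.7% of 3197 other genes in such windows did, with a median of 48.2 points. Between MD1/MD1 Xist1lox/+ and MD1/MD1 XistdeltaA/+ it was 1 of 5, with a median of 7.19 points, against 88.1% of 2080 other genes. Between MD1/MD1 XistdeltaA/+ and +/+ Xist1lox/+ it was also 1 of 5, with a median of 0.259 points, against 87.3% of 2905. The macrophage genes in such windows, Cyba apart, thus differed by less than 30 points where most other genes did not. Gpnmb, Lyz2, Mpeg1, Csf1r and Itgb2 were under 30% in every library compared, so a difference of 30 points was not possible for them. Csf1r was lower where its window was, at 5.86% in MD1/MD1 XistdeltaA/+ (window at 0.235%) and 24.6% in +/+ Xist1lox/+ (window at 50.8%).

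The 1 gene that differed by 30 points or more along with its window, in both comparisons that held it, was Cyba. It had 0 of 994 paternal reads in MD1/MD1 Xist1lox/+, 596 of 1493 (39.9%, 37.4 to 42.5) in MD1/MD1 XistdeltaA/+, 0 of 1157 in +/+ Xist1lox/+ and 3 of 947 (0.317%) in +/+ XistdeltaA/+, in windows at 0%, 45.5%, 0% and 0%. Coro1a stayed near its window in all libraries, at 37.1%, 42.7%, 42.4% and 35.1% in windows near 48%. Cyba and Coro1a are also among the 3 genes that stayed within 2-fold in FPKM with XistdeltaA/+. The third of them, Cd68, was at 30.9% (25.4 to 36.9), 18.6% (15.5 to 22.1), 35.8% (30.4 to 41.5) and 61.0% (55.6 to 66.2) in windows near 50%. The Cd68 share was lowest in MD1/MD1 XistdeltaA/+ and highest in +/+ XistdeltaA/+. Whether it went with the level of macrophage genes was not tested. Lcp1 also differed in +/+ XistdeltaA/+, at 19.3% (12.7 to 27.6), 23.0% (19.0 to 27.4), 23.1% (16.3 to 31.2) and 73.9% (51.6 to 89.8), the last from 23 reads.

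The X-linked gene Cybb had 0 of 76, 0 of 229 and 0 of 56 paternal reads in MD1/MD1 Xist1lox/+, MD1/MD1 XistdeltaA/+ and +/+ Xist1lox/+, which allows shares of up to 3.95%, 1.31% and 5.36%. The medians of its window were low too, at 7.11%, 7.91% and 0.629%. No share could be read for Fcgr2b, Fcgr3, Fcer1g, Cd52, C1qa, C1qb, C1qc, Lyz1 and Aif1, which had 0 allele-assigned reads in every library. The genes that were most alike in pattern mostly had low shares, which were not set against their windows. Of the 20, 17 reached 20 allele-assigned reads in each of the 3 libraries, and 15 of these were under 15% paternal in each, against 5.25% of other genes that passed the filter, the exceptions being AF251705 at 20.7%, 31.1% and 31.0% and Ccrl2, a chemokine-binding receptor, at 32.4%, 33.0% and 37.8%. Emr1 was at 0%, 0.573% and 2.06%, and Cd36 at 0.943%, 0.462% and 0%.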

How the data were processed

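RNA was measured in 4 libraries, 1 per genotype, made from TRIzol total RNA with a stranded mRNA kit, per the labels' protocols. Cufflinks 2.2.1, Cuffdiff and the mm9 build are named in the submitters' processing notes, without a role. Which aligner, strain variants and annotation were used is unknown from the labels and headers. The authors made the allele-assigned read count, per the file headers, by counting the reads of each gene that could be given to a parental allele. The authors made the fraction, per the file headers, by dividing the paternal reads by all such reads of the gene. The authors computed the third deposited value, FPKM, per the file headers, for each gene and library, and how it was scaled between libraries is not stated. The table also holds 6 columns that match no sample here, and they were left out. The fraction times the count gave whole paternal reads for 100% of values (tolerance 1e-06).

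FPKM was used as log2(FPKM + 1), with a filter at a mean of 1 FPKM that 11471 genes passed. Totals of 7301034 to 8008500 allele-assigned reads set the precision of shares, with exact Clopper-Pearson intervals at 95%. Shares were set against the median of all other genes in the same 10 Mb window that had at least 20 reads. With 1 library per genotype no test was run between genotypes. Alternatives were the pseudocount, the filter, the scaling, reads in place of FPKM, the read minimum, the window size and leaving out Lyz1 and Lyz2. Ratios and intervals were tested on simulated data. The genes and marker lists were chosen with earlier results of these data known. Genes outside the 34 are those most alike in pattern, the highest expressed of each list, and list members at 0. A gene that this rule would name is left out. Gene coordinates are mm9, counted from 1. Promoters were taken from RefSeq by symbol. Python 3.11.15, pandas 2.3.3, numpy 2.4.6 and scipy 1.17.1 were used.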

Additional observations from a re-analysis of the deposited data

Results flagged for a closer look

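The Smchd1 ratio of the 28 macrophage genes differed between the Xist backgrounds. Their median log2 ratio of FPKM + 1, MD1/MD1 over +/+, was 3.38 higher with XistdeltaA/+ than with Xist1lox/+. With 1 library per genotype this difference was not tested, and the genes were chosen on these values. All 28 genes were above 0 with XistdeltaA/+, and 19 of the 28 were below 0 with Xist1lox/+. The log2 ratios of the 19 with Xist1lox/+ were all smaller than 2-fold. Those of lysosomal and secreted products were -0.48 for Gpnmb, -0.30 for Ctss, -0.18 for Mpeg1, -0.15 for Lyz2, -0.0919 for Cd68 and -0.0223 for Laptm5. Those of receptors and complement were -0.33 for Cd14, -0.20 for Fcgr3, -0.19 for C1qa, -0.12 for Csf1r, -0.0971 for Tyrobp and -0.073 for Fcgr2b. Those of surface, oxidase and actin-binding genes were -0.23 for Itgb2, -0.0884 for Itgam, -0.0432 for Cd53, -0.0654 for Cyba and -0.15 for Lcp1. The chemokines Ccl6 and Ccl9 were at -0.49 and -0.26.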

How the results depend on the processing

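Every count of macrophage genes past 2-fold and every count of genes out of step with their window stayed within 1.5 times its value under the alternatives that were run, and 0 results changed direction. The medians of log2 ratios moved, in the order pseudocount of 0.1, no filter, rescaling by the median ratio, and allele-assigned reads scaled by library. For MD1/MD1 over +/+ with XistdeltaA/+ (3.29) they were 5.21, 2.69, 3.31 and 3.63. With Xist1lox/+ (-0.09) they were -0.0997, -0.0692, -0.0877 and -0.0702. For Xist1lox/+ over XistdeltaA/+ in +/+ (1.90) they were 3.87, 1.39, 1.91 and 2.06, and in MD1/MD1 (-1.30) they were -1.57, -1.24, -1.33 and -1.23. The values on reads cover all 28 genes. C1qa, C1qb, C1qc, Cd52, Fcer1g, Fcgr2b and Fcgr3, with 0 allele-assigned reads in every library, enter them at a log2 ratio of 0. These values therefore differ from the medians on reads over 21 genes given above. Without Lyz1 and Lyz2 the pooled paternal shares were 24.2% in MD1/MD1 Xist1lox/+, 23.5% in MD1/MD1 XistdeltaA/+ and 22.35% in +/+ Xist1lox/+. A filter on the 3 libraries other than +/+ XistdeltaA/+, chosen after seeing the data, gave 26 of 29 genes past 2-fold with XistdeltaA/+. No paired analysis was possible because each genotype had 1 library. Depth limits genes with few or 0 allele-assigned reads, and no replicate error could be measured.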
